A study of Mus musculus with 17 samples.

Results

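The genes described here encode the machinery that loads and shows peptides on MHC class II molecules: H2-Aa, H2-Ab1, H2-Eb1, H2-DMa, H2-DMb1, Cd74 and Ciita. They were chosen by name, and each was measured by the array probes whose RefSeq transcript belongs to it. All 7 genes were on the array, with 8 probes out of 55681, H2-Ab1 having 2 and each of the others 1. Of the 37163 genes or unnamed transcripts on the array, 21384 were bright enough to be tested, among them 6 of the 7 members; Ciita was too dim. The H2 genes lie on chromosome 17, Cd74 on chromosome 18 and Ciita on chromosome 16.

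The samples were forestomachs of male MutaTMMouse animals, a transgenic strain whose mutation reporter was carried by every group, aged 24 to 26 weeks. Benzo(a)pyrene (BaP), a polycyclic aromatic hydrocarbon, was given by mouth in olive oil on 28 consecutive days, and the animals were sampled 72 hours after that. The groups were olive oil alone (control, 5 arrays, replicates 1 to 5), 25 mg/kg per day (4 arrays, replicates 6 to 9), 50 mg/kg per day (4 arrays, replicates 12 to 15) and 75 mg/kg per day (4 arrays, replicates 17 to 20). On each of the 17 two-colour arrays, Cy5 carried the RNA of 1 forestomach and Cy3 carried a reference RNA pooled from 11 mouse cell lines, so a log2 ratio of 1 means that the forestomach signal was 2 times the reference signal. The protocol gives 5 per group, while each BaP group has 4 arrays here. The design text calls the arrays of a group biological replicates. Of an array's probes, 39.9% to 50.7% were well above background, and the number of arrays limits the precision.

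Class II molecules are alpha-beta dimers that carry peptides from endosomes to the cell surface, where CD4+ T cells read them. H2-Aa and H2-Ab1 encode the chains of I-A, and H2-Eb1 encodes the beta chain of I-E. Cd74 is the invariant chain, which fills the groove of new dimers until its remnant is exchanged for peptide with the help of H2-DM, whose chains are encoded by H2-DMa and H2-DMb1. Ciita is the coactivator that switches the family on. B cells, dendritic cells, Langerhans cells and macrophages make these proteins constantly, and epithelial cells can make them after interferon gamma. The forestomach is lined by squamous epithelium, so whole-tissue RNA mixes epithelial and immune cells; in such samples, fewer cells of a type and less RNA per cell cannot be told apart.

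Ciita does not bind DNA itself but docks on proteins that sit on a shared promoter module, in which an X box is bound by RFX factors and a Y box by NF-Y. The RefSeq promoter table (GRCm38.p6, 250 bases before to 50 after a gene's start) held entries for 4 of the 7 members, and in 3 of them a fixed spelling of the X box core, GNAACT, was followed on the gene's strand by the Y box letters TGATTGG. These stretches are shown because 3 of the 4 members with an entry hold both sets of letters; no promoter of the other 3 members was examined. Each is written 5′ to 3′ on the gene's strand, and the capitals mark the matched letters of the X box core and then the Y box.
H2-Aa, chr17:34287847-34287924, minus strand: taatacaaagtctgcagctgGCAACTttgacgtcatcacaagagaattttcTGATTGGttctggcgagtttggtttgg
H2-Eb1, chr17:34305756-34305832, plus strand: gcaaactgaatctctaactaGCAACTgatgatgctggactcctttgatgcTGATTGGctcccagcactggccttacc
H2-DMb1, chr17:34153077-34153154, plus strand: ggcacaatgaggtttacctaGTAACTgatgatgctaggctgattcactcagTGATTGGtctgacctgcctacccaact

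The Y box letters began 50, 61 and 63 bases before the start of H2-Aa, H2-Eb1 and H2-DMb1, and 25, 24 and 25 bases lay between the matched stretches. Counting both strands, 42.8% of the 32851 promoters in the table held GNAACT and 7.82% held TGATTGG. The X letters followed by the Y letters on the same strand, with 15 to 35 bases between, were in 0.201% of the promoters (66 entries). H2-DMa had 2 entries; neither held TGATTGG, and 1 held GNAACT. The spacing limits were set after the members' promoters had been read, and a match describes letters, not binding.

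Control 2 stood apart from the other controls. It was the highest control in each of the 6 measured class II genes and also in lymphocyte markers. Of 12 B cell markers, all on the array, 6 passed the filter on dim probes, and their mean log2 ratio, each gene centred on its mean over the arrays, was 3.05 in control 2, against -0.58 to 0.16 in the other 4 controls. Cr2, the complement receptor of B cells and follicular dendritic cells, had a log2 ratio of 5.17 in control 2 and -0.22 to 0.27 in the other controls. The B cell markers that failed the filter, among them Cd79a, Pax5, Blk, Bank1 and Spib, were above background on 1 to 3 of the 17 arrays. T and NK cell markers (1.20 in control 2, against -0.44 to -0.11 in the other controls) and general leukocyte markers (2.08, against -0.75 to -0.14) were also highest there, whereas squamous epithelium markers were within the range of the other controls (-0.13, against -0.48 to 0.08). The next highest B cell mean, 1.26, was on array 13 of the 50 mg/kg group. Array 7 of the 25 mg/kg group was highest in glandular stomach markers (4.19, against -1.33 to 1.59 on all other arrays), and leaving it out called no member at any dose. After it came arrays 20 and 17 of the 75 mg/kg group (1.59 and 1.31) and array 9 of the 25 mg/kg group (1.11). The controls lay at -1.33 to 0.16. The part of glandular tissue in the class II differences was not tested. Results are given with and without control 2; every array was left out in turn, and the attention to this array came after its values were seen.

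**Figure D1:**
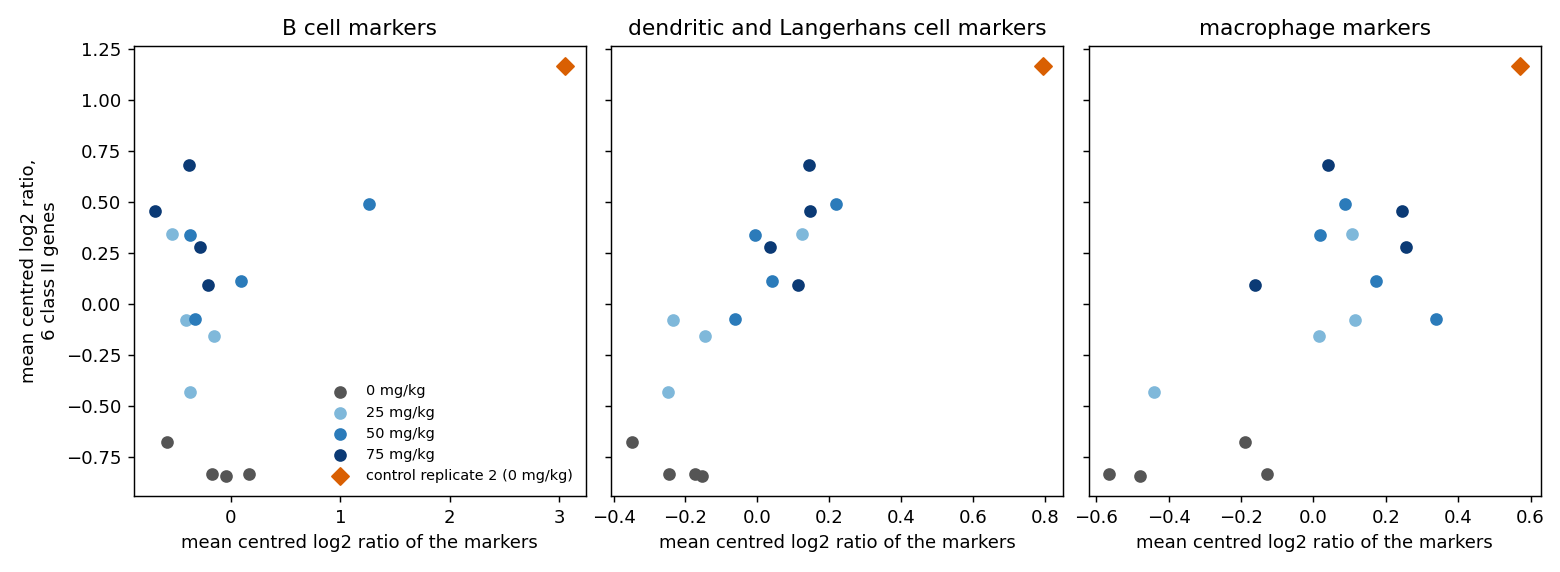
Mean centred log2 ratio of the 6 measured class II genes (vertical) against the same mean of B cell, dendritic and Langerhans cell, and macrophage markers (horizontal), 1 point per array, coloured by dose. Control replicate 2 (diamond) lies at 3.05 for B cell markers and 1.16 for the class II genes, while the other 4 controls lie between -0.84 and -0.68 for the class II genes.

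The mean centred ratio of the 6 measured class II genes was higher on every BaP array (-0.43 to 0.68) than in 4 of the 5 controls (-0.84 to -0.68). Control 2 (1.16) was above all BaP arrays. Gene by gene, some BaP arrays lay among those 4 controls. With all 17 arrays, none of the 6 measured genes passed the test at any dose (limma, Benjamini-Hochberg adjusted over 21384 genes, threshold 0.05). At 75 mg/kg against control all 6 differences were positive, with a median of 0.83 on the log2 scale beside a median of -0.01 over all genes tested; 1.1% of all genes were called (236), 0.893% being higher (191). An unadjusted p under 0.05 was reached by 2 of the 6, H2-DMb1 and H2-Aa, and by 2154 of the 21384 genes. At 50 mg/kg the median was 0.51 and 0.0468% of genes were called, and at 25 mg/kg the median was 0.35 and 0.014% were called; 1 member (H2-DMb1) and 0 members had an unadjusted p under 0.05, as did 1454 and 693 of all genes. With control 2 included, the SD of the control ratios was 0.39 to 1.38 over the 6 genes, and without it 0.13 to 0.48.

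Without control 2, 4 of the 6 genes were called higher at 75 mg/kg: H2-Aa, Cd74, H2-DMb1 and H2-DMa. Control 2 drew attention after its high values in these genes were seen. The p-values and fold values without it, here and below, do not allow for that choice. The share of all genes called was 1.35%, and 1.12% were called higher. H2-DMb1 also rose at 50 mg/kg, where 0.122% of genes were called higher, and no member was called at 25 mg/kg, where 0.00468% were. Of the 17 fits that left out 1 array, this was the only one that called any of the 6 at 75 mg/kg; the median difference was 0.65 to 1.27 over those fits, the highest being without control 2. With array 13 left out as well, the same 4 genes were called at 75 mg/kg (1.16% of all genes were called higher) and H2-DMb1 at 50 mg/kg (0.0514%).

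**Figure D2:**
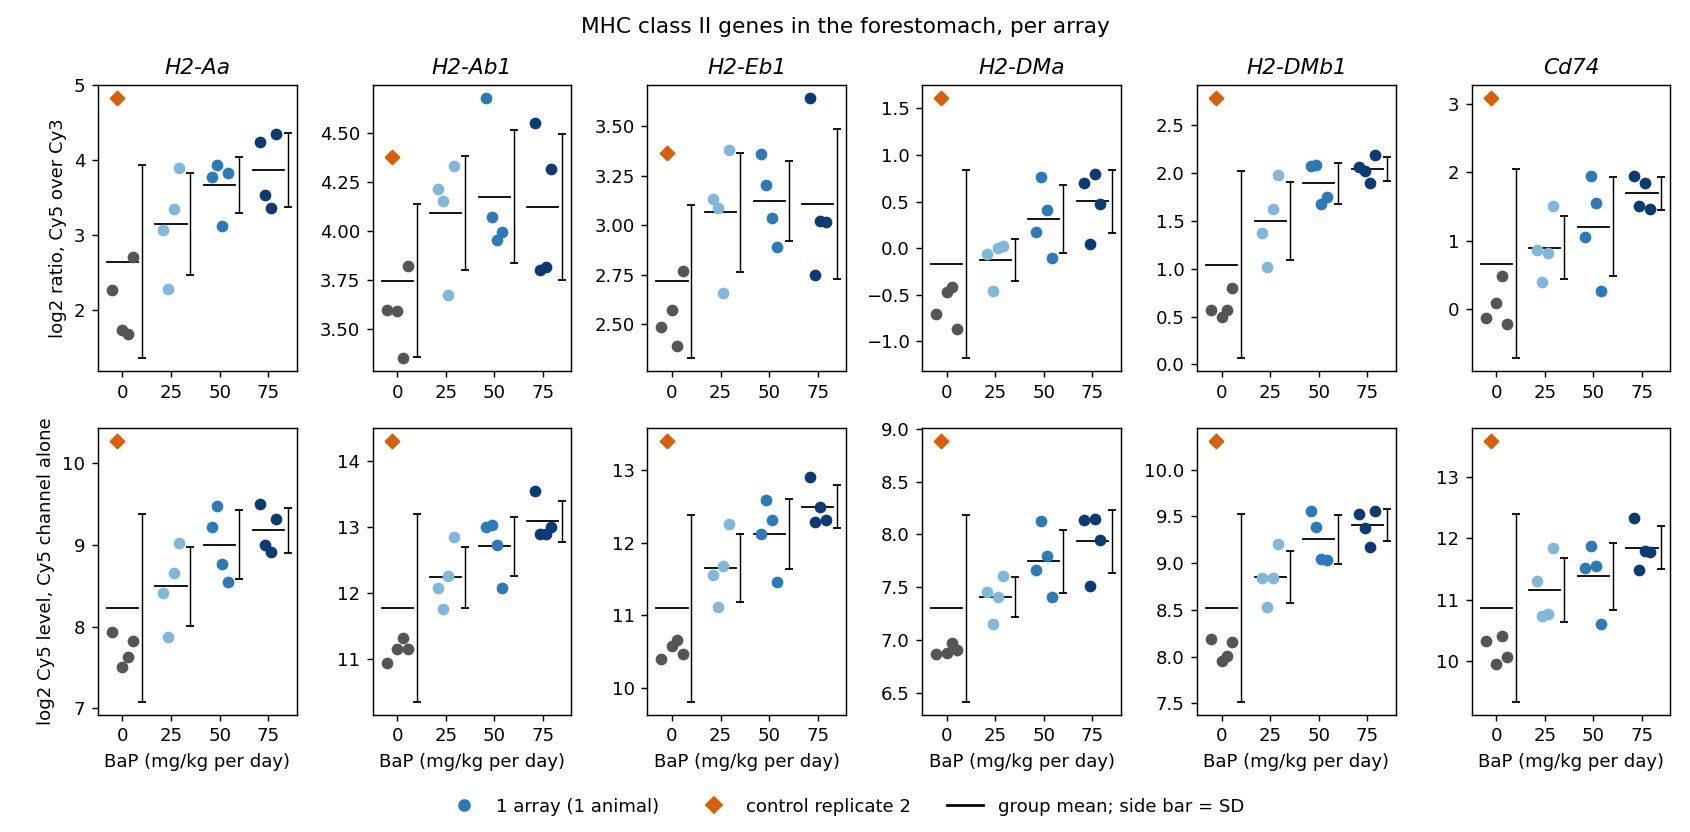
Values of the 6 measured class II genes on each array by daily BaP dose: log2 ratio of forestomach over reference (upper row) and log2 Cy5 level from the Cy5 channel alone (lower row). Points are arrays, the line is the group mean with its SD beside it, and the diamond is control replicate 2, which is above all other controls in all 12 panels.

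H2-DMb1, the beta chain of the peptide exchange factor H2-DM, had the smallest spread at high dose. Its log2 ratios were 0.56, 2.78, 0.49, 0.57 and 0.80 in controls 1 to 5, 1.37, 1.02, 1.62 and 1.97 at 25 mg/kg, 2.07, 2.08, 1.67 and 1.74 at 50 mg/kg, and 2.06, 2.01, 1.89 and 2.19 at 75 mg/kg. All treated arrays were above the 4 controls other than control 2, and all were below control 2. At 75 mg/kg the difference from control was 1.00 ± 0.35 (SE) with all arrays (adjusted p = 0.297) and 1.43 ± 0.16 without control 2 (adjusted p = 0.00046), a 2.69-fold rise; at 50 mg/kg it was 1.28 ± 0.16 without control 2 (adjusted p = 0.00343). H2-DMb2, an adjacent and closely similar gene, has a probe of its own that was above background on 2 arrays; how far the copies share signal was not tested.

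H2-DMa, the partner chain, was near the reference level. It had log2 ratios of -0.71, 1.61, -0.47, -0.42 and -0.87 in controls 1 to 5, -0.06, -0.46, 0.00 and 0.02 at 25 mg/kg, 0.17, 0.76, 0.41 and -0.10 at 50 mg/kg, and 0.70, 0.04, 0.79 and 0.48 at 75 mg/kg. The 50 and 75 mg/kg arrays were above every control but control 2. The difference at 75 mg/kg was 0.67 ± 0.37 with all arrays (adjusted p = 0.582) and 1.12 ± 0.19 without control 2 (adjusted p = 0.0059), a 2.17-fold rise.

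Cd74, the invariant chain, had log2 ratios of -0.14, 3.09, 0.09, 0.49 and -0.22 in controls 1 to 5, 0.86, 0.39, 0.82 and 1.51 at 25 mg/kg, 1.05, 1.94, 1.55 and 0.27 at 50 mg/kg, and 1.95, 1.50, 1.85 and 1.47 at 75 mg/kg. The 75 mg/kg arrays were close together and above every control but control 2, whereas array 15 at 50 mg/kg and array 7 at 25 mg/kg lay among the controls. Its difference at 75 mg/kg was 1.03 ± 0.52 with all arrays (adjusted p = 0.537) and 1.64 ± 0.30 without control 2 (adjusted p = 0.00938), a 3.11-fold rise. At 50 mg/kg it was 1.15 ± 0.30 without control 2, which did not pass (adjusted p = 0.2).

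H2-Aa, the alpha chain of I-A, showed the largest fitted ratio difference of the 6 genes at 75 mg/kg. Its log2 ratios were 2.27, 4.83, 1.73, 1.68 and 2.70 in controls 1 to 5, 3.06, 2.28, 3.35 and 3.90 at 25 mg/kg, 3.77, 3.94, 3.12 and 3.83 at 50 mg/kg, and 4.24, 3.53, 3.36 and 4.34 at 75 mg/kg. All 50 and 75 mg/kg arrays were above the 4 controls other than control 2. The difference at 75 mg/kg was 1.22 ± 0.50 with all arrays (adjusted p = 0.406) and 1.77 ± 0.32 without control 2 (adjusted p = 0.0101), a 3.41-fold rise. The reference signal of this probe was well above background on 1 of the 17 arrays, so the level of its ratio, though not the Cy5 values given below, rests on a Cy3 signal near background.

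H2-Ab1 and H2-Eb1, the beta chains of I-A and I-E, behaved differently on the ratio scale. H2-Ab1 had log2 ratios of 3.59, 4.38, 3.59, 3.35 and 3.82 in controls 1 to 5, 4.21, 4.15, 3.67 and 4.33 at 25 mg/kg, 4.68, 4.07, 3.95 and 3.99 at 50 mg/kg, and 4.55, 3.80, 3.82 and 4.32 at 75 mg/kg. H2-Eb1 had log2 ratios of 2.49, 3.36, 2.57, 2.39 and 2.77 in controls 1 to 5, 3.13, 3.09, 2.66 and 3.38 at 25 mg/kg, 3.36, 3.20, 3.04 and 2.89 at 50 mg/kg, and 3.64, 2.75, 3.02 and 3.02 at 75 mg/kg. Treated and control arrays overlapped at 75 mg/kg for both genes, with or without control 2. Neither was called: without control 2 the differences at 75 mg/kg were 0.53 ± 0.20 for H2-Ab1 (adjusted p = 0.318) and 0.55 ± 0.18 for H2-Eb1 (adjusted p = 0.212). The second H2-Ab1 probe gave 0.40 ± 0.24 at 75 mg/kg with all arrays, beside 0.37 ± 0.22 for the probe used (adjusted p = 0.638 and 0.634 with each probe tested on its own).

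For these 2 genes the Cy3 channel, labelled as holding the same reference RNA on every array, changed with the Cy5 channel. The raw Cy3 median signal of H2-Ab1 was 348, 2651, 366, 446 and 458 in controls 1 to 5, 561, 484, 901 and 892 at 25 mg/kg, 793, 1078, 946 and 768 at 50 mg/kg, and 1292, 1264, 1178 and 1155 at 75 mg/kg. The reference signal was thus highest on control 2, next highest on all 75 mg/kg arrays and lowest on the remaining controls. Over the 17 arrays the Cy3 level changed by 0.73 log2 units for each unit of Cy5 at H2-Ab1 (0.66 at its second probe) and by 0.71 at H2-Eb1, and the raw Cy3 signal spanned 7.61-, 7.13- and 5.87-fold. The same slope was small for Cd74 (0.09), H2-DMb1 (0.05) and H2-DMa (-0.08). It was 0.00 for H2-Aa, whose Cy3 signal was well above background on 1 of the 17 arrays. A Cy3 signal so near background cannot show whether the reference of H2-Aa moved. Among 41 probes of like brightness and spread (mean log2 ratio above 2, mean log2 Cy5 level above 10, SD of the Cy5 level above 0.8) the median slope was 0.29, with quartiles of 0.10 and 0.50. The ratio of H2-Ab1 and H2-Eb1 therefore spans less than their forestomach signal does; why Cy3 moved was not tested.

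**Figure D3:**
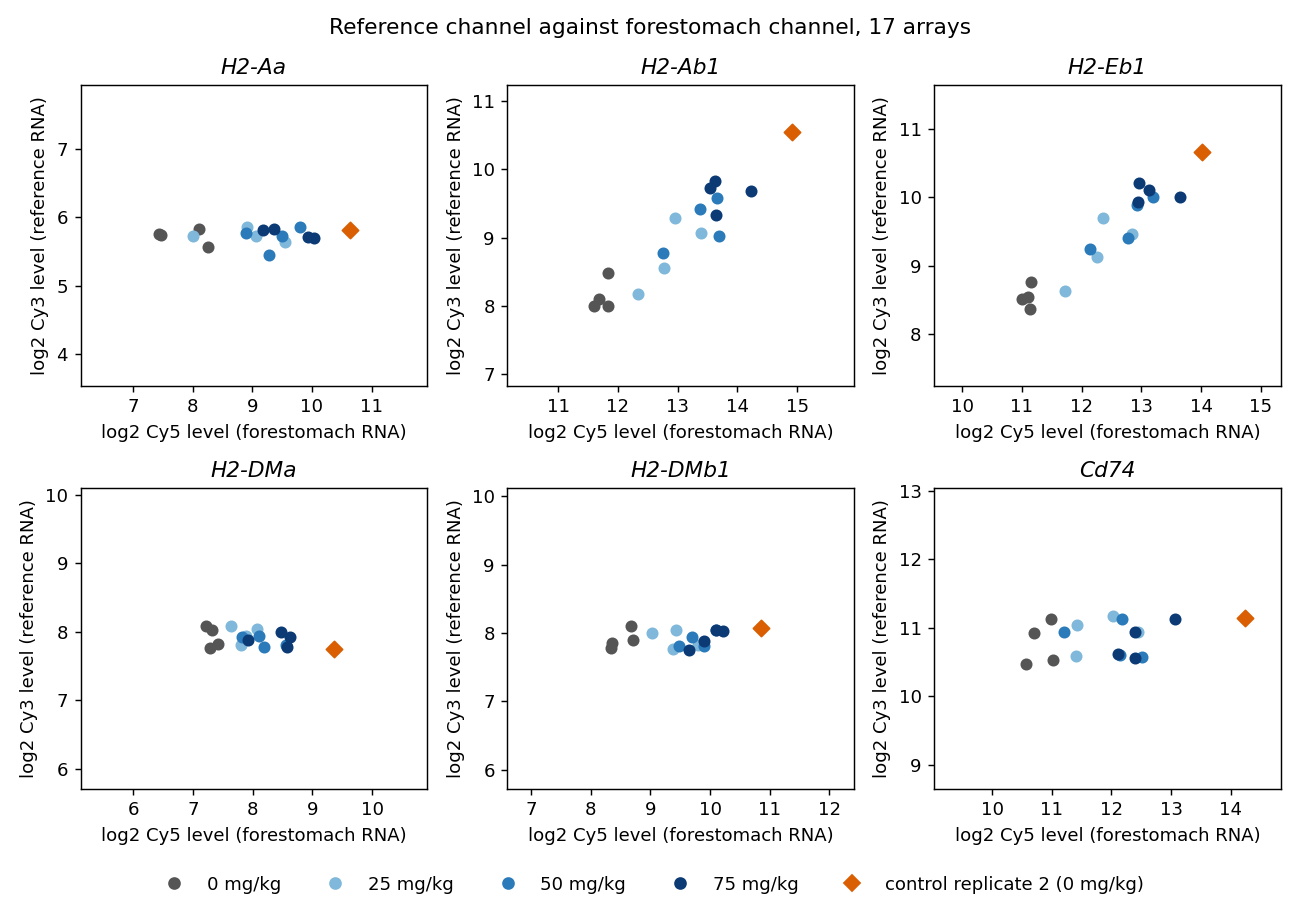
Log2 Cy3 level (reference RNA) against log2 Cy5 level (forestomach RNA) for the 6 measured class II genes, 1 point per array, coloured by dose, both after loess and quantile scaling of brightness; all panels span the same number of log2 units. The Cy3 level climbs with Cy5 for H2-Ab1 (slope 0.73) and H2-Eb1 (slope 0.71) and stays nearly level for the other 4 genes. Of these, H2-Aa had a Cy3 signal well above background on only 1 array.

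With the Cy5 channel taken alone and quantile normalized, all 6 genes were higher on every 50 and 75 mg/kg array than on every control but control 2. H2-Ab1 had log2 Cy5 levels of 10.95, 14.30, 11.15, 11.33 and 11.15 in controls 1 to 5, 12.08, 11.76, 12.26 and 12.85 at 25 mg/kg, 13.01, 13.03, 12.73 and 12.07 at 50 mg/kg, and 13.55, 12.90, 12.90 and 13.00 at 75 mg/kg. H2-Eb1 had 10.40, 13.40, 10.57, 10.66 and 10.46 in controls 1 to 5, 11.55, 11.12, 11.68 and 12.26 at 25 mg/kg, 12.12, 12.59, 12.32 and 11.46 at 50 mg/kg, and 12.91, 12.28, 12.49 and 12.32 at 75 mg/kg. Every treated array was above every control but control 2 for both genes. With all arrays the Cy5 levels called 0 of the 6 genes at 75 mg/kg (limma; 1.25% of all genes were called; 4 members and 2312 of all genes had an unadjusted p under 0.05), and the median difference was 0.96.

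Without control 2, a combination added after the data were seen, the Cy5 levels of all 6 genes rose at 75 mg/kg, where 1.23% of all genes were called higher. H2-Eb1 rose by 1.97 ± 0.24 (3.93-fold, adjusted p = 0.000731) and H2-Ab1 by 1.94 ± 0.23 (3.85-fold, adjusted p = 0.000731), the highest of the 6. The Cy5 differences of Cd74 (1.66 ± 0.28), H2-Aa (1.46 ± 0.23), H2-DMb1 (1.33 ± 0.15) and H2-DMa (1.03 ± 0.16) had adjusted p-values of 0.000442 to 0.00503. At 50 mg/kg 5 of the 6 rose, all but Cd74 (adjusted p = 0.101), where 0.182% of all genes were called higher; at 25 mg/kg none was called (0.00468% of all genes were), and the smallest adjusted p was 0.409. Of all settings tried at 75 mg/kg, this combination was the only one to call H2-Ab1 or H2-Eb1.

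**Figure D4:**
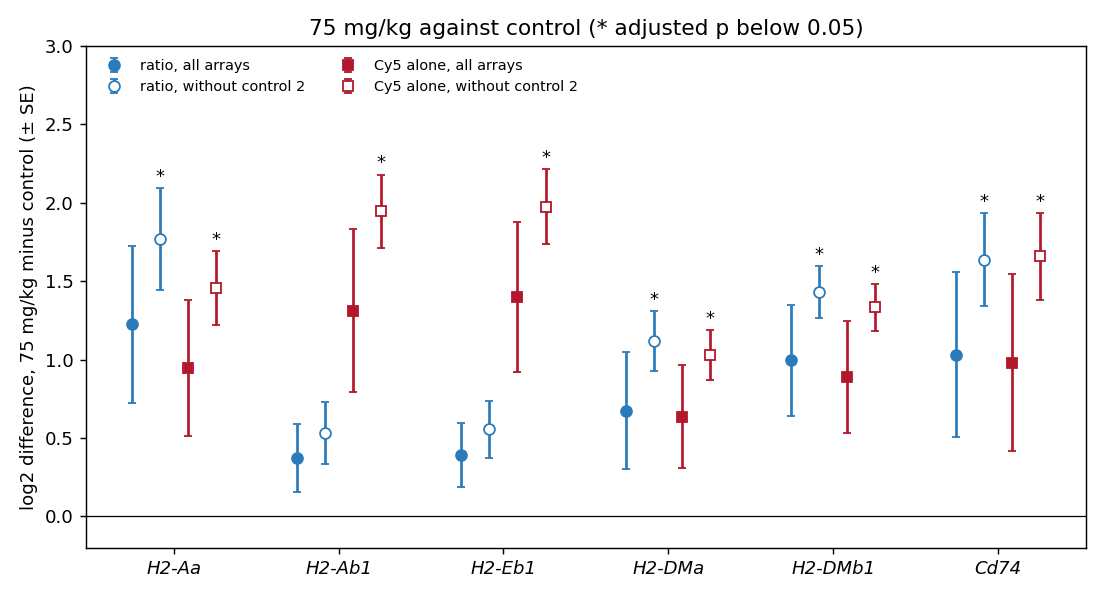
Log2 difference, 75 mg/kg minus control, with its standard error for the 6 measured class II genes, from ratios (circles) and from Cy5 alone (squares), with all arrays (filled) and without control replicate 2 (open); a star marks an adjusted p below 0.05. Stars stand over 4 genes for the ratio and 6 for Cy5 without control 2, and over none with all arrays.

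Members whose groups did not overlap were also counted. With all controls, no member had every treated array above every control at 25, 50 or 75 mg/kg, on the ratio scale (0.562%, 1.2% and 1.99% of all genes did) or on the Cy5 scale (0.506%, 1.44% and 2.09%). Without control 2, on the ratio scale, 1 member did so at 25 mg/kg (H2-DMb1; 1.1% of all genes did), 5 at 50 mg/kg (all but Cd74; 2.37% of all genes) and 4 at 75 mg/kg (H2-Aa, H2-DMa, H2-DMb1 and Cd74; 3.37% of all genes). On the Cy5 scale without control 2 the counts were 5, 6 and 6 of the 6, beside 1.09%, 2.93% and 3.71% of all genes. Control 2 was left out after its high values in the members were seen. The counts without it partly follow from that choice, and the shares of all genes do not allow for it.

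The arrays lay on 3 slides, each holding all 4 groups, and within-slide differences could be formed. At 75 mg/kg minus control, H2-DMb1 differed by 0.38, 1.42 and 1.39 on slides 1 to 3, Cd74 by 0.47, 1.39 and 1.69, and H2-Aa by 0.69, 1.74 and 1.64. Slide 1, which holds control 2, gave the smallest difference for each of these genes, and without that array its differences were 1.49, 2.09 and 1.97. With control 2 kept, slide 1 was also smallest for H2-DMa (0.25, 0.86 and 1.35 on slides 1 to 3). It was largest for H2-Ab1 (0.56, 0.34 and 0.49) and H2-Eb1 (0.72, 0.41 and 0.25). All 6 genes were higher at 75 mg/kg on all 3 slides, with differences of 0.25 to 1.74. With slide as a fixed block and control 2 left out, the same 4 genes were called at 75 mg/kg (1.99% of all genes were called higher), and H2-Ab1 had an adjusted p of 0.0511.

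Between doses no member was called. For 75 against 25 mg/kg the ratio differences with all arrays were 0.03 to 0.80, and none had an unadjusted p under 0.05 (0.0608% of all genes were called); for 75 against 50 mg/kg they were -0.05 to 0.49, and no gene of the whole array was called (0%) although 583 had an unadjusted p under 0.05. For 50 against 25 mg/kg the differences were 0.06 to 0.51, again with 0 genes called (0%) and 485 with an unadjusted p under 0.05. A straight line on dose, in log2 units per 25 mg/kg, had slopes of 0.13 to 0.42 with all arrays and called no member (1.35% of all genes were called); 4 members and 2444 of all genes had an unadjusted p under 0.05. Without control 2 the slopes of H2-Aa (0.58 ± 0.11), Cd74 (0.52 ± 0.09), H2-DMb1 (0.47 ± 0.06) and H2-DMa (0.38 ± 0.06) passed, with adjusted p-values of 0.000602 to 0.00531, where 1.47% of all genes were called higher. Those of H2-Ab1 and H2-Eb1, 0.17 each, did not.

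Ciita, the coactivator of the family, was above background in Cy5 on 1 array (in Cy3 on 14), array 13 of the 50 mg/kg group, and failed the filter. Its log2 ratio was 0.45 there and -0.36 to 0.19 on the other 16 arrays. With no filter on dim probes the difference at 75 mg/kg was 0.20 ± 0.12 (adjusted p = 0.692). A signal this near background carries no usable fold for Ciita. Of 10 genes for RFX, NF-Y and CREB factors and for coactivators such as Kat2b, Crebbp and Carm1, 9 passed the filter, none was called at 75 mg/kg with or without control 2, and their median difference was -0.01 with all arrays. Rfxank and Rfxap, subunits of the RFX complex, differed by -0.08 ± 0.13 and -0.05 ± 0.10 with all arrays, and Rfx5, the DNA-binding subunit, was above background on no array.

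Other class II genes gave fewer values. Of H2-Ea, H2-Eb2, H2-DMb2, H2-Oa and H2-Ob, the first was not matched on the array. H2-Eb2 and H2-DMb2 were above background on 2 arrays each. H2-Oa and H2-Ob passed the filter, but were above background on only 5 and 4 arrays. H2-O is a dimer that restrains H2-DM, chiefly in B cells. H2-Oa had log2 ratios of -0.39 to 0.12 at 75 mg/kg, against 2.65 in control 2 and -0.60 to -0.43 in the other controls. H2-Ob had 0.05 to 0.31 at 75 mg/kg, against 2.64 in control 2 and 0.12 to 0.18 in the other controls. Neither was called with or without control 2. The differences at 75 mg/kg without control 2 were 0.30 ± 0.17 for H2-Oa and 0.04 ± 0.14 for H2-Ob. Both genes failed to stand above background on most arrays, so these small differences do not show that they were unchanged.

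Genes that make peptides for class II, or cut the invariant chain, changed in part. Of 12 endosomal protease and processing genes, all measured, 1 was called at 75 mg/kg with all arrays: Ctsh, cathepsin H, which rose by 1.03 ± 0.22 (adjusted p = 0.0262). Its log2 ratios were 3.68, 3.66, 3.15 and 3.33 at 75 mg/kg, against 2.51, 3.29, 1.99, 2.11 and 2.22 in controls 1 to 5, of which control 2 alone overlapped the treated arrays. Without control 2, Ctsh rose by 1.25 ± 0.16 (adjusted p = 0.00111). Ctss, cathepsin S, which trims the invariant chain in antigen-presenting cells, rose by 1.29 ± 0.22 (adjusted p = 0.00526), while Ctsl, cathepsin L, fell by 0.59 ± 0.14 (adjusted p = 0.0457). With all arrays the differences of Ctss and Ctsl were 0.76 ± 0.44 and -0.46 ± 0.16, neither called. Ifi30, the thiol reductase of antigen processing, differed by -0.03 ± 0.15 without control 2 and -0.08 ± 0.14 with all arrays.

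Of 12 genes upstream of Ciita on the interferon gamma route, 9 were measured. Irf1, a transcription factor induced by interferons, rose at 75 mg/kg without control 2 (1.06 ± 0.25, adjusted p = 0.0471; 0.86 ± 0.27 with all arrays, adjusted p = 0.215). Ifng itself was above background on no array. The kinases Jak1 and Jak2 differed by 0.06 ± 0.12 and -0.14 ± 0.11 with all arrays and were not called. The mean centred ratio of the 9 genes was 0.03 to 0.20 at 75 mg/kg, against 0.30 in control 2 and -0.30 to -0.19 in the other controls.

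Of 9 genes for class II turnover and costimulation 8 were measured; none was called at 75 mg/kg with all arrays, and 1, Cd86, a costimulator on antigen-presenting cells, rose without control 2 (0.52 ± 0.11, adjusted p = 0.0202). Cd83, a maturation marker of dendritic cells, differed by 0.71 ± 0.21 without control 2 (adjusted p = 0.148) and by 0.12 ± 0.47 with all arrays.

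Of 12 class I presentation genes, all measured, 8 were called higher at 75 mg/kg with all arrays and 9 without control 2. Of all genes tested, 0.893% and 1.12% were called higher in these fits. H2-K1 rose by 1.85 ± 0.32 and 2.04 ± 0.31 in these fits, and Nlrc5, the class I counterpart of Ciita, by 1.93 ± 0.24 and 1.96 ± 0.25. The mean centred ratio of the class I genes was 0.19 to 0.83 at 75 mg/kg, against 0.03 in control 2 and -0.77 to -0.51 in the other controls. That of the 6 class II genes was 0.09 to 0.68 at 75 mg/kg, against 1.16 in control 2 and -0.84 to -0.68 in the other controls.

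Markers of antigen-presenting cells were set beside the class II genes. Of 12 dendritic and Langerhans cell markers 10 were measured, and their mean centred ratio was 0.04 to 0.15 at 75 mg/kg, against 0.79 in control 2 and -0.35 to -0.15 in the other controls. Cd207, langerin, the marker of Langerhans cells, was not high in control 2. It had log2 ratios of 0.93, 1.05, 0.86 and 1.94 at 75 mg/kg, against 0.25, 0.16, 0.04, 0.33 and 0.29 in controls 1 to 5, and rose by 0.98 ± 0.22 with all arrays (adjusted p = 0.0432) and differed by 0.97 ± 0.24 without control 2 (adjusted p = 0.067). Itgax, CD11c, rose without control 2 (0.97 ± 0.14, adjusted p = 0.00265) and differed by 0.58 ± 0.31 with all arrays. Ly75 was above background on no array and Xcr1 on 1, while Flt3, Zbtb46 and Clec9a, which passed the filter, were above it on 4 arrays each.

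Of 12 macrophage markers 10 were measured, with a mean centred ratio of -0.16 to 0.25 at 75 mg/kg, against 0.57 in control 2 and -0.56 to -0.13 in the other controls. Adgre1, F4/80, rose without control 2 (0.78 ± 0.14, adjusted p = 0.00703) and differed by 0.54 ± 0.22 with all arrays; Cd163 was above background on no array. None of the 6 measured B cell markers and none of the 10 measured T and NK cell markers was called at 75 mg/kg with or without control 2, and the B cell median difference was -0.82 with all arrays and -0.21 without it. No squamous epithelium marker (12 measured) was called in either fit. The part of B cell, dendritic cell and macrophage markers in the class II differences was not tested.

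The 6 genes varied together from array to array. Pearson's r between pairs of members over the 17 arrays was 0.52 to 0.96 on the ratio scale (median 0.74 over 15 pairs) and 0.92 to 0.99 on the Cy5 scale (median 0.96); all points share their array, and control 2 and dose both enter these values. The 8 genes most like the mean member profile over all arrays included Aif1 (r = 0.97), the macrophage calcium-binding protein also called IBA1, Ly86 (r = 0.96), the secreted partner of CD180 on B cells and myeloid cells, and Bcl2a1d, Cd300c2, Rnf114, Lilra6 and Pirb (r = 0.91 to 0.93), with 1 transcript that had no gene name here. Once each group's mean was taken out, Lilra6 (r = 0.97), Ly86 (r = 0.97) and Aif1 (r = 0.96) were again among the highest 8. The others were Rftn1, Gm14548, Abi3 and 2 transcripts without a name. Without control 2 the r of Aif1 and Ly86 over the remaining arrays was 0.96 each, whereas that of Abi3 was 0.53. The 8 highest without control 2, a list added after the data were seen, also held Gbp3, Ccl8 and H2-Q6 (r = 0.92 each), of which Ccl8 had r = 0.49 over all arrays.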

How the data were processed

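Forestomach RNA (Cy5) and a common reference RNA (Cy3) were measured on 17 arrays, with no dye swap in the labels. Per the file headers, the deposited intensity values were written by Feature Extraction 10.7.3.1; the median signal and median local background of each channel were used, since the tables used here held no mean signal, which the plan had assumed. The deposited series table held log2 values that tracked loess ratios without background correction (r = 0.998 to 0.999 per array, column medians -0.03 to -0.02; its scale, centring and direction are not given in the sources used here); it served as an alternative.

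In R 4.3.3 with limma 3.58.1, signals were background-corrected (normexp, offset 50) and normalized within arrays (loess, the 3671 control spots of 62976 and flagged spots at weight 0), and spots of a probe were averaged. A probe was kept where Cy5 stood well above background on 4 or more arrays (27577 of 55681), and each gene took its brightest probe, leaving 21384 genes. Symbols came from RefSeq transcripts (GRCm38.p6); 26413 probes had 1 symbol, 0 had several and 29268 had none. One limma fit of 4 group means, and one of a line on dose, used all arrays; p-values were Benjamini-Hochberg adjusted and called under 0.05. Cy5 alone was quantile normalized; the levels of both channels in the plot of Cy3 against Cy5 were taken after loess and Aquantile. The code was tested on simulated data. Array annotation was mm9, so promoters were used only as RefSeq gives them.

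Members, gene lists and tests were chosen with earlier results of these data known. The text names all members, the genes of each list past the threshold at 75 mg/kg (of the class I list 2; a withheld item is not reported here) and up to 2 others, and the 8 genes most like the mean member profile; Cr2, H2-Oa and H2-Ob values by array were singled out after they were seen. Alternatives were other background, normalization, filter, probe, slide and prior settings, each array left out, and 4 added combinations without control 2.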

Additional observations from a re-analysis of the deposited data

Results flagged for a closer look

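Of 32 sets of 4 or 5 arrays (8 probes in 4 groups), 6 had 1 array marked by Dixon's rule. In these, the array's gap to its nearest neighbour, over the group's range, exceeded the 95% critical value. Chance alone marks about 1 in 20 such sets. The sets are not independent, since the 8 probes share the same arrays and the members varied together. A single odd array can therefore mark several sets. In 4 of the 6 the array was control 2, the highest: H2-DMb1 (log2 ratio 2.78, next 0.80, gap over range 0.865), Cd74 (3.09, next 0.49, 0.786), H2-DMa (1.61, next -0.42, 0.818) and the second H2-Ab1 probe (4.57, next 3.65, 0.768). In the 25 mg/kg group array 7 was lowest for H2-DMa (-0.46, next -0.06, 0.838), and it is the array highest in glandular stomach markers. In the 50 mg/kg group array 12 was highest for the H2-Ab1 probe used in the tests (4.68, next 4.07, 0.836).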

How the results depend on the processing

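No paired analysis was possible because the groups share no replicate numbers; the slides, each holding all 4 groups, served as a block instead. No member's difference changed sign past a threshold under any alternative; of the recomputed member values, 1283 kept their side of the threshold and 55 crossed to a call. With all arrays kept, none of the alternatives to the processing called a member in any comparison, whether the slide was a fixed or random block or the Cy5 channel was used alone. Without control 2, members called at 50 mg/kg, at 75 mg/kg and on the line numbered 5, 6 and 6 for Cy5 alone (46, 344 and 556 of the 21384 genes), 3, 4 and 5 with slide as a block (78, 551 and 758), and 2, 3 and 3 with Agilent's processed signals (62, 327 and 506); without array 13 of the 50 mg/kg group too, on the main scale, they numbered 1, 4 and 4 (12, 291 and 408). The members' median log2 difference at 50 and 75 mg/kg, without control 2, was 1.24 and 1.56 for Cy5 alone and 1.10 and 1.38 for processed signals. Leaving out each of the 17 arrays in turn called 0 members at 25 mg/kg and between doses, 0 to 1 at 50 mg/kg, and 0 to 4 at 75 mg/kg and on the line, the highest without control 2. The members' median ranged from 0.25 to 0.68 at 25 mg/kg, 0.37 to 1.04 at 50 mg/kg and 0.65 to 1.27 at 75 mg/kg, from 0.41 to 0.69 for 75 against 25 mg/kg, 0.05 to 0.25 for 75 against 50 mg/kg and 0.18 to 0.50 for 50 against 25 mg/kg, and from 0.23 to 0.42 per dose step on the line.

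Counts over all genes moved more, and the cause was not tested. Against 3 genes called at 25 mg/kg, the count was 0 with arrays centred on their medians and 1 with processed signals, no filter, Cy5 alone or slide as a fixed block, the last pair giving 1 also without control 2; arrays left out gave 0 to 2. Against 10 at 50 mg/kg it was 1 with median centring, 6 with no filter or with probes averaged, 28 and 21 with slide as a fixed or random block, and without control 2 it was 46 for Cy5 alone, 78 with slide and 62 with processed signals; arrays left out gave 2 to 32. Against 236 at 75 mg/kg it was 145 with median centring, 425 and 382 with slide as a fixed or random block, 155 with the compared groups alone, and 551 with slide and without control 2; arrays left out gave 119 to 289. Against 13 for 75 against 25 mg/kg it was 0 with median centring, processed signals or the compared groups alone, 32 with either slide block and 38 with slide and without control 2; arrays left out gave 0 to 37. For 75 against 50 and 50 against 25 mg/kg, 0 became 1 with Cy5 alone, with or without control 2; arrays left out gave 0 to 6 and 0 to 0. Against 288 on the line it was 172 with median centring, 554 and 487 with slide as a fixed or random block, and without control 2 it was 556 for Cy5 alone, 758 with slide and 506 with processed signals; arrays left out gave 190 to 404. Signal over background limits Ciita most: its probe was above background in Cy5 on 1 array.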
